A study of Mus musculus with 6 samples.

Results

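The Eph-ephrin, Slit-Robo and netrin genes were examined in RNA from mouse cortex at postnatal day 7 (P7), 41 genes of the 24972 in the deposited table. The members were every row named as an Eph receptor of class A or B, an ephrin, a Slit, a Robo, a netrin, a netrin G or an Unc5 receptor, together with Dcc and Neo1. The rule used names and no measured value, but it was set with earlier results of these data known. They comprised 9 Eph A and 5 Eph B receptors, 5 ephrin A and 3 ephrin B ligands, 3 Slit ligands, 4 Robo receptors, 4 netrins, 2 netrin G genes, 4 Unc5 receptors, and Dcc with Neo1.

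These families code for cues and receptors that steer growing axons and migrating neurons. Eph receptors are receptor tyrosine kinases on the cell surface, and their ephrin ligands sit on the membrane of the neighboring cell, the A class through a lipid anchor and the B class through a transmembrane segment, so that contact can signal into both cells. Slits are secreted proteins that repel axons through Robo receptors. Netrins attract axons through Dcc and repel them through Unc5 receptors, whereas netrin G proteins are lipid-anchored and act at synapses. In the cortex these genes are known for axon sorting by area, for the guidance of callosal, corticothalamic and thalamocortical axons, and for the shaping of dendritic spines.

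Cortices of 3 wildtype and 3 Zmiz1-KO samples were compared, with 1 library per sample, and whether a sample was a single animal was not stated. Both groups carried the floxed allele, Zmiz1f/f. Wildtype had no Cre, and Zmiz1-KO was Zmiz1f/f;Emx1Cre, in which Cre is made in the progenitors of cortical excitatory neurons and glia but not in those of interneurons, vessels, meninges or microglia, so the deletion and the presence of Cre cannot be told apart. The comparison asked which genes depend on Zmiz1, a transcriptional coregulator, in the developing cortex, and its p values measure the spread between these samples, which may be technical. One label speaks of isolated progenitor cells and others of cortex, and the 8 defining neuron markers were abundant in every library, with sums of 191798 to 208572 normalized counts in wildtype and 191978 to 196485 in Zmiz1-KO.

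Some properties of the libraries touch the values below. Zmiz1 itself was higher in the libraries labelled Zmiz1-KO, at 9944, 9779 and 9660.2 normalized counts, than in wildtype, at 8119, 7929 and 7461 (log2 change 0.32 ± 0.0402 SE, adjusted p = 0.00125), so these libraries are called KO-labelled here. Values were summed over whole genes, and transcripts lacking the floxed part were not separated from complete ones. Emx1, the gene of the Cre line, was lower without overlap in KO-labelled libraries, at 532, 473 and 583 against 818, 688 and 784 normalized counts. Its log2 change was -0.53 ± 0.0904 SE (adjusted p = 0.0150), and it passed the threshold in 3 of 6 fits with a library left out. By Xist and Ddx3y, wildtype replicate 3 and KO-labelled replicate 2 were female and the other 4 libraries male. Between groups, the summed markers of upper-layer neurons (21075 to 24663 against 17968 to 19477 normalized counts) and of the oligodendrocyte lineage (16783 to 18715 against 15015 to 15679.9) were lower without overlap in KO-labelled libraries. Those of interneurons (18377 to 22812 against 23933 to 25702), striatal projection neurons (23360.0 to 28829 against 30477 to 34408) and meninges (11508 to 13295 against 14384 to 15431) were higher without overlap. Sums for deep-layer neurons, astrocytes, microglia, endothelium, pericytes and choroid plexus overlapped.

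**Figure D1:**
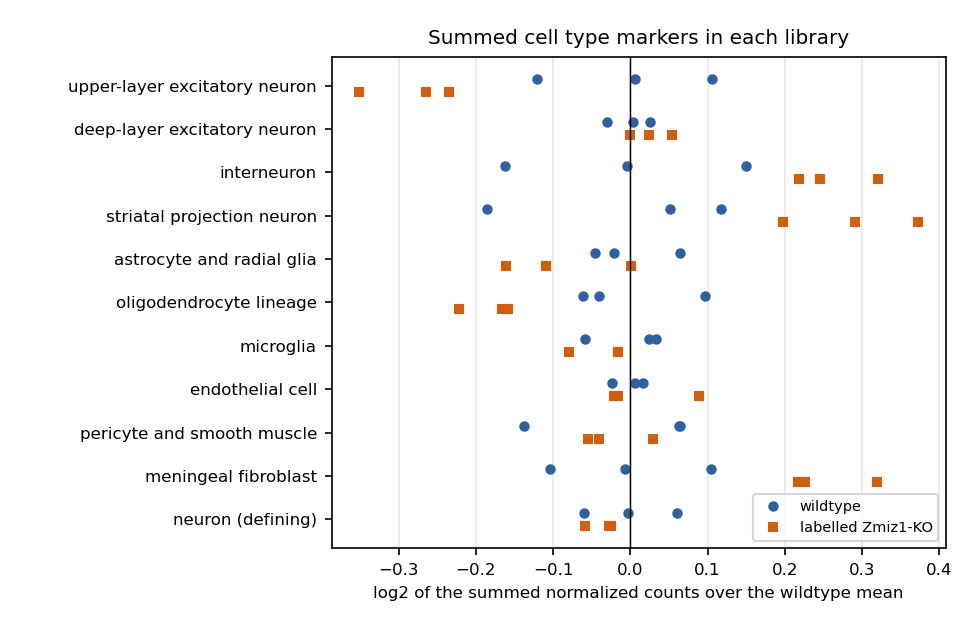
Summed normalized counts of cell type markers in each library, as log2 over the wildtype mean, with blue circles for wildtype and orange squares for KO-labelled libraries. Upper-layer and oligodendrocyte lineage sums lie to the left of wildtype and interneuron, striatal and meningeal sums to the right, the others overlap, and choroid plexus, whose sum ranged from 444 to 8695 in wildtype, is left out.

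All 41 members passed the filter, which asked for 10 or more normalized counts in 3 or more libraries, and all but Epha1 reached 10 in every library. The wildtype mean was at least 1000 normalized counts in 23 members and under 100 in 4, namely Epha1, Epha2, Efna4 and Ntn5. In 29 members no 75-base stretch occurred in annotated transcripts of another gene. Over 5% of stretches were shared in 4 members, Ntn5 (16.0%, with Sec1), Ntng2 (8.87%, with 6530402F18Rik), Efna4 (6.16%, with 4731419I09Rik) and Efna3 (5.38%, with Gm15998). In all of these but Ntng2 the partner lay on the opposite strand, which libraries from this kit do not tell apart.

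Expression of the members spanned a wide range. Levels are given here as normalized counts per kilobase of merged exon, so that genes of different length can be compared. Efnb3, a transmembrane ephrin, had the highest level, 3175 ± 179.6 per kilobase (SD, n = 3) in wildtype. Neo1, a receptor for netrins and RGM proteins, had a level of 1496 ± 93.4 per kilobase, and Ephb6, an Eph receptor without kinase activity, one of 1157 ± 135. Next came Epha4, which binds ephrins of both classes, at 893 ± 33.3 per kilobase. Epha1 (3.31 ± 0.601), Ntn5 (7.89 ± 2.40) and Epha2 (15.8 ± 1.09) had the lowest levels per kilobase.

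**Figure D2:**
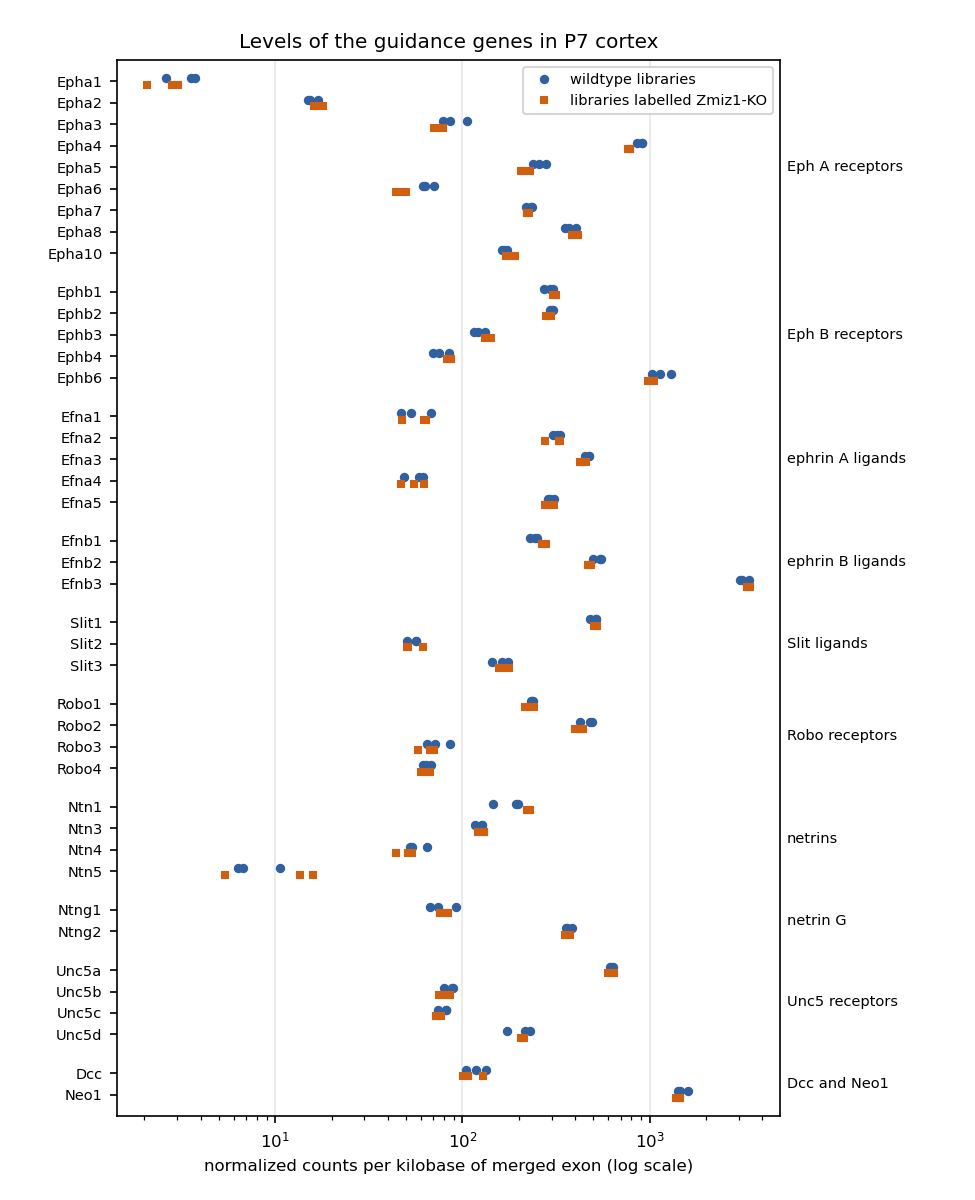
Level of each of the 41 guidance genes in each library, as normalized counts per kilobase of merged exon on a log axis, with blue circles for the 3 wildtype libraries and orange squares for the 3 KO-labelled libraries. Efnb3 and Neo1 had the highest levels and Epha1 and Ntn5 the lowest, and for most genes the points of both groups lie close together.

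Adjacent steps in this order were often within the spread between libraries. Wildtype ranges overlapped in 27 of the 40 pairs of neighbors and were apart in 13. Efnb3, Neo1, Ephb6, Epha4 and Unc5a each stood clear of the next gene, whereas Efna3 (467 ± 15.2 per kilobase) and Robo2 (466 ± 36.6) could not be ranked on this length. Within families, 1 member often made up most of the summed level. In wildtype, Neo1 gave 92.6% ± 1.14 (SD, n = 3) of the sum of Neo1 and Dcc, Ntng2 gave 82.6% ± 2.66 of the netrin G sum, Efnb3 80.4% ± 1.63 of the ephrin B sum, Slit1 70.2% ± 2.25 of the Slit sum and Unc5a 62.8% ± 1.53 of the Unc5 sum. The leading share was 59.3% ± 2.76 for Ephb6, 55.5% ± 1.14 for Robo2, 48.5% ± 5.39 for Ntn1, 42.6% ± 0.512 for Epha4 and 39.1% ± 0.904 for Efna3. With the longest transcript as the length, the same 10 genes led their families, but the order between families changed. Robo2 (921 ± 72.4 per kilobase) then lay above Efna3 (481 ± 15.7) and Unc5a (649.5 ± 11.4) without overlap, and Ephb6 (1159.9 ± 135) overlapped with Epha4 (1137 ± 42.4).

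Between genotypes, Epha4 was the only one of the 41 members to pass the threshold of an adjusted p of 0.05. Over the 15800 genes tested, 0.411% passed, and 0.247% passed and were lower. Epha4 fell to 87.3% of its wildtype mean. Epha3, Epha5 and Epha6 had 83.5%, 83.5% and 72.0% of theirs and did not overlap between groups, but their adjusted p values missed the threshold. Every ephrin A, Slit, Robo and Unc5 gene overlapped between groups, as did Dcc and Neo1. In total the groups did not overlap in 8 members, 5 lower and 3 higher in KO-labelled libraries, a share of 19.5%, against 16.3% of all tested genes (8.16% lower and 8.1% higher). An unadjusted p under 0.05 was reached by 11 of the 41 members, 7 lower and 4 higher. Over all tested genes it was reached by 1733 of 15800, or 11.0% (5.84% lower and 5.13% higher). This share was smaller than that among the members, which were chosen with earlier results of these data known. The median log2 change was -0.03 over the members and -1.75e-04 over all tested genes, with 24 members below 0 and 17 above.

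**Figure D3:**
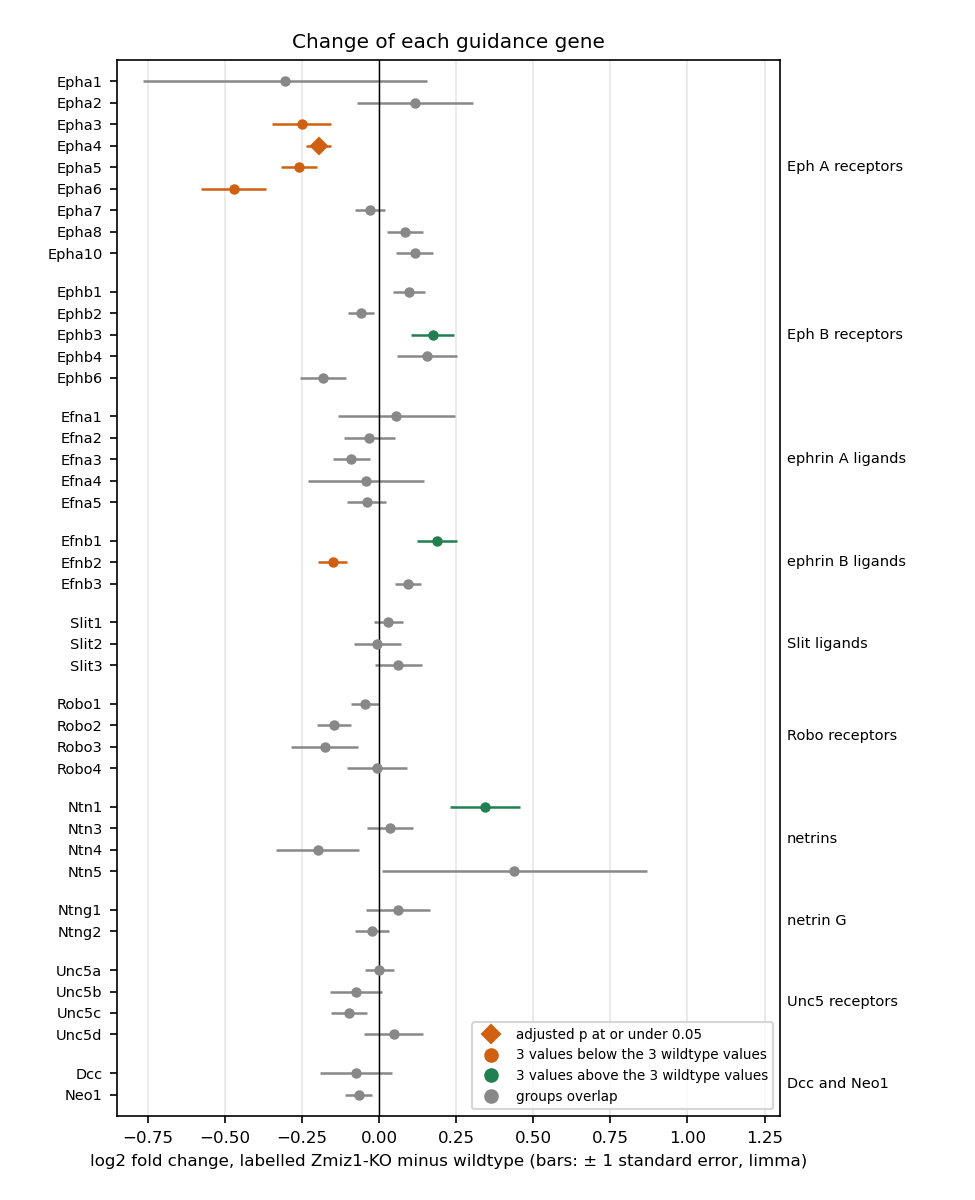
Log2 fold change of each guidance gene, KO-labelled minus wildtype libraries, with bars of 1 standard error from limma. The diamond marks Epha4, which passed the threshold of 0.05 on the adjusted p, orange and green mark genes whose 3 KO-labelled values all lay below or above the 3 wildtype values, and gray marks overlapping groups. Epha3, Epha4, Epha5, Epha6 and Efnb2 lie to the left of 0, and Ephb3, Efnb1 and Ntn1 to the right.

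The promoter windows of the 4 Eph A receptor genes without overlap are printed here because these genes of one family were all lower. Each window runs from 250 bases before to 50 bases after the annotated start (RefSeq, GRCm38.p6) and is written 5′ to 3′ on the strand of the gene, with each GC box (GGGCGG on either strand) in capitals. All 4 genes are on the minus strand, with windows at chr1:77515039-77515338 for Epha4, chr5:84417333-84417632 for Epha5, chr16:60605482-60605781 for Epha6 and chr16:63864126-63864425 for Epha3.
Epha4: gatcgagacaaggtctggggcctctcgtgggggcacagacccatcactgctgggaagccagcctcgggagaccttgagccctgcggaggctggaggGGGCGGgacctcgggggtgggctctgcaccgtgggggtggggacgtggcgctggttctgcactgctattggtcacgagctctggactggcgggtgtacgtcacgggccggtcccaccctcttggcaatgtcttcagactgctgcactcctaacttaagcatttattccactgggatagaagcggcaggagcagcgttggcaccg
Epha5: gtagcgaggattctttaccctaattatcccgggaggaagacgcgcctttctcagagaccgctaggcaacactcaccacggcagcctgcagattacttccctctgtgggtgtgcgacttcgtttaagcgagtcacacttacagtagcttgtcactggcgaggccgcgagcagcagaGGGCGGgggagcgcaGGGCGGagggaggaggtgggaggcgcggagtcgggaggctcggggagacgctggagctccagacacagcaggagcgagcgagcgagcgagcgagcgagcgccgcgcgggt
Epha6: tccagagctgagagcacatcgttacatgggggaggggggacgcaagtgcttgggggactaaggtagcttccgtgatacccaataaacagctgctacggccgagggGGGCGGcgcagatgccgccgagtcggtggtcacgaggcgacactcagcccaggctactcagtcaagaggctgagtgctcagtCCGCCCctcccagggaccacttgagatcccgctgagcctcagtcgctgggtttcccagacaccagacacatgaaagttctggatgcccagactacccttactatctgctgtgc
Epha3: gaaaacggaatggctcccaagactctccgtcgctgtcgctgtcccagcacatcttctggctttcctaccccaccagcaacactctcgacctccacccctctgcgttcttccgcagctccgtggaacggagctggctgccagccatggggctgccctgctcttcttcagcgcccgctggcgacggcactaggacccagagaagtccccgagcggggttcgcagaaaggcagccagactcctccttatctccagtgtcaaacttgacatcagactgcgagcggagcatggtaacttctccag

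GC content of these windows was 64.0% for Epha4, 64.3% for Epha5, 60.3% for Epha6 and 60.7% for Epha3, against a median of 52.7% over all 32851 windows of the table. There was 1 GC box in the window of Epha4, 2 each in those of Epha5 and Epha6 and none in that of Epha3. The motif was present in 35.7% of all windows and in 28 of the 41 windows of members. These came from 36 genes, and Dcc, Efnb3, Ntn1, Slit1 and Unc5d are named only. On either strand, none of the 4 windows held a TATA box (TATAAA, in 13.6% of all windows), an AP-1 site (TGANTCA, in 7.81%), a cyclic AMP response element (TGACGTCA, in 1.79%) or an RBPJ site (GTGGGAA, in 6.38%). The windows of Epha1, Epha2, Epha7, Epha8 and Epha10, receptors of the same class that overlapped between groups, also held at least 1 GC box. Their GC content was 58.0% for Epha1, 54.7% for Epha2, 66.3% and 67.0% for Epha7, 84.3% for Epha8 and 65.3% for Epha10. High GC content was thus not particular to the 4 genes.

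Epha4 (chr1:77367185-77515088, GRCm38) codes for a receptor that keeps corticospinal axons from recrossing the midline and acts at dendritic spines. It had 7343, 6884 and 7352 normalized counts in the wildtype libraries and 6344, 6313 and 6179.7 in the KO-labelled ones, so that every wildtype library was above every KO-labelled one. The log2 change was -0.20 ± 0.0402 SE with an adjusted p of 0.0444, and the exact permutation p of 0.1 was the smallest that 3 against 3 libraries allow. With each library left out in turn the log2 change was -0.23 to -0.18, but the adjusted p passed the threshold in only 2 of 6 fits. It was 0.138 and 0.165 without wildtype replicates 1 and 3, 0.192 and 0.298 without KO-labelled replicates 1 and 3, and 0.0875 without both female libraries. It also missed the threshold with Xist as covariate (0.0555) and without robust estimation of the spread (0.103). Epha4 gave 42.6% ± 0.512 of the summed Eph A level per kilobase in wildtype and 40.2% ± 0.403 in KO-labelled libraries (SD, n = 3 each).

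Epha6 (chr16:59653483-60605531), another receptor for A-class ephrins, had 327, 372 and 336 normalized counts in wildtype and 235, 247 and 263 in KO-labelled libraries. The groups were well apart, and the difference was the largest of the 8 members without overlap (log2 change -0.47 ± 0.106 SE, adjusted p = 0.0694). Together with Epha4 it was under an adjusted p of 0.1, as were 0.671% of all tested genes (0.411% lower).

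Epha5 (chr5:84054761-84417382), a receptor in topographic maps and at synapses, had 4671, 4319 and 3984 normalized counts in wildtype against 3431, 3852 and 3544. The lowest wildtype value and the highest KO-labelled value were those of the female libraries, wildtype replicate 3 and KO-labelled replicate 2. The difference did not pass the threshold (log2 change -0.26 ± 0.0592 SE, adjusted p = 0.103), nor did it with Xist as covariate (0.129). It did pass without wildtype replicate 3 (adjusted p = 0.0360), without KO-labelled replicate 2 (0.0222) and without both (0.00396). Leaving out the libraries nearest to the other group widens the gap, so these fits are no separate support for a difference. Calls over all tested genes were 52, 151 and 146 there, against 65 in the main fit. The fit without both was chosen after seeing the data. With each library left out in turn, Epha5 passed in only 2 of 6 fits, and its adjusted p reached 0.438.

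Epha3 (chr16:63543534-63864175), a receptor that repels axons on contact with A-class ephrins, had 918, 686 and 749 normalized counts in wildtype against 667, 684 and 614. Wildtype replicate 2 lay only just above KO-labelled replicate 2, and wildtype was widely spread (785 ± 120.0, SD, n = 3). The difference did not pass the threshold (log2 change -0.25 ± 0.0960 SE, adjusted p = 0.342), and without wildtype replicate 1 the log2 change was -0.13 (adjusted p = 0.684).

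The upper-layer markers were lower in the same libraries as these receptors, with all 8 of the list below 0, a median log2 change of -0.26 and 3 past the threshold. Oligodendrocyte lineage markers were lower there as well, with 7 of 8 below 0, a median log2 change of -0.16 and 1 past the threshold. The part of either cell type in the lower Eph A levels was not tested. In whole tissue, fewer cells of a type and less RNA per cell cannot be told apart.

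The other 5 Eph A receptors overlapped between groups. Epha7, which takes part in corticothalamic mapping, averaged 2259 ± 98.9 normalized counts in wildtype and 2213 ± 27.4 in KO-labelled libraries, SD, n = 3 each (log2 change -0.03 ± 0.0487 SE, adjusted p = 0.888). Epha8 (log2 change 0.08 ± 0.0578 SE, adjusted p = 0.639) and the kinase-inactive Epha10 (log2 change 0.12 ± 0.0597 SE, adjusted p = 0.508) did not pass the threshold. Epha1 (8.13 to 14.7 normalized counts over all libraries) and Epha2 (70.1 to 84.5), best known from epithelia, had standard errors of 0.461 and 0.188 on the log2 scale, at which a difference of the size seen in Epha4 was not detectable. The summed Eph A level per kilobase was 2131, 2036 and 2126 in wildtype and 1953, 1973 and 1896 in KO-labelled libraries, 92.5% of wildtype on the means. For the sums of the 10 families this percentage ran from 92.5% for Eph A to 112% for netrins, with 92.7% for Robo receptors. Netrin sums also did not overlap between groups, but Robo sums did.

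**Figure D4:**
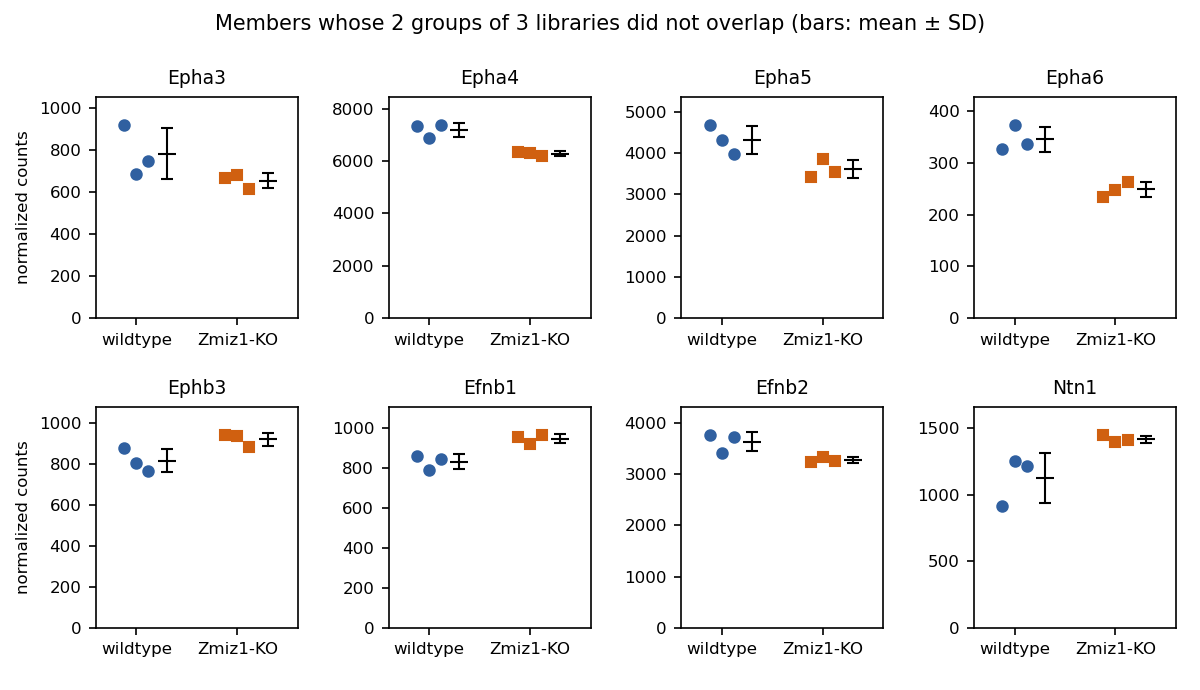
Normalized counts per library, from 0 upward, of the 8 guidance genes whose groups did not overlap, with points for the 3 wildtype and the 3 KO-labelled libraries and bars for mean ± SD. Epha3 to Epha6 and Efnb2 were lower in all 3 KO-labelled libraries and Ephb3, Efnb1 and Ntn1 higher, and in Epha3 and Ephb3 the nearest values of the groups almost touched.

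None of the Eph B receptors, which bind B-class ephrins and organize spines and commissural axons, passed the threshold. Ephb3 was the only one without overlap, with 878, 806 and 765 normalized counts in wildtype and 939.8, 938 and 882 in KO-labelled libraries (log2 change 0.17 ± 0.0698 SE, adjusted p = 0.357). Its lowest KO-labelled value was just above wildtype replicate 1. Ephb6, the highest Eph B gene per kilobase, had 4906, 3898 and 4288 against 3838, 3686 and 3966 normalized counts (log2 change -0.18 ± 0.0748 SE, adjusted p = 0.411). Here wildtype replicate 2 lay among the KO-labelled values, and the log2 change was -0.26 without it (adjusted p = 0.0644) and -0.095 without wildtype replicate 1 (adjusted p = 0.621). Ephb1 (log2 change 0.10 ± 0.0520 SE, adjusted p = 0.531), Ephb2 (log2 change -0.06 ± 0.0427 SE, adjusted p = 0.662) and Ephb4, a receptor of veins (log2 change 0.16 ± 0.0978 SE, adjusted p = 0.601), overlapped.

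The A-class ephrins, ligands of the receptors above, had means of 93.9% to 104% of wildtype, and none passed the threshold. Efna3, the highest of them per kilobase, had 1093, 1156 and 1159.6 normalized counts in wildtype and 1111, 1052 and 1039 in KO-labelled libraries (log2 change -0.09 ± 0.0599 SE, adjusted p = 0.628). Efna5, known for setting area boundaries, had 1181, 1247 and 1159 against 1136, 1110.4 and 1242 (log2 change -0.04 ± 0.0621 SE, adjusted p = 0.873). Values of both genes overlapped. The log2 changes of Efna1, Efna2 and Efna4 were 0.06 ± 0.189, -0.03 ± 0.0824 and -0.04 ± 0.189 SE. The summed ephrin A level per kilobase was 1195 ± 12.1 in wildtype and 1153 ± 38.3 in KO-labelled libraries (SD, n = 3 each).

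The 3 B-class ephrins did not share a direction. Efnb2, found in neurons and arteries, had 3751, 3416 and 3728 normalized counts in wildtype and 3226, 3331 and 3251 in KO-labelled libraries, without overlap and without passing the threshold (log2 change -0.15 ± 0.0465 SE, adjusted p = 0.218). Efnb1, an X-linked ligand, was higher without overlap, with 859, 789.7 and 847 against 955, 921 and 963 (log2 change 0.19 ± 0.0650 SE, adjusted p = 0.280). Meningeal markers were higher in the same libraries, with all 8 above 0, a median log2 change of 0.23 and 1 past the threshold. Interneuron markers (median log2 change 0.28, all 10 above 0, none past the threshold) were higher there as well. So were striatal markers (0.33, all 8 above 0, 1 past the threshold). Wildtype replicate 1 had the highest wildtype value of Efnb1 and the lowest meningeal sum. The part of any of these cells in the Efnb1 level was not tested. Efnb3, the highest of all members per kilobase, had 9679, 10756 and 9885 against 10925, 10861 and 10546 (log2 change 0.09 ± 0.0423 SE, adjusted p = 0.423), and wildtype replicate 2 lay among the KO-labelled values.

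No Slit or Robo gene separated the genotypes. Slit1 had 3079.9, 3066 and 2827 normalized counts in wildtype and 3067, 3103 and 2987 in KO-labelled libraries (log2 change 0.03 ± 0.0469 SE, adjusted p = 0.876). Slit2, which keeps callosal axons on their path, had 1385 ± 81.6 and 1384 ± 159.6 (SD, n = 3 each), a log2 change of -0.01 ± 0.0761 SE, and Slit3 one of 0.06 ± 0.0756. Robo2, the highest Robo gene per kilobase, had 8407, 7216 and 8123 against 7187, 7463 and 6782 normalized counts (log2 change -0.15 ± 0.0556 SE, adjusted p = 0.349). Wildtype replicate 2 lay among the KO-labelled values, and without it the adjusted p was 0.0644. With each library left out in turn the log2 change of Robo2 was -0.21 to -0.10. Its adjusted p reached 0.752, and none of these fits passed the threshold. Robo1, which acts in neuronal migration (log2 change -0.05 ± 0.0460 SE, adjusted p = 0.785), Robo3, known from commissural axons (log2 change -0.18 ± 0.108 SE, adjusted p = 0.592), and Robo4, an endothelial receptor (log2 change -0.01 ± 0.0977 SE, adjusted p = 0.990), overlapped as well.

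Ntn1, the secreted attractant of axons that carry Dcc, was the only netrin without overlap, with 913, 1251 and 1219 normalized counts in wildtype and 1445, 1396 and 1408 in KO-labelled libraries. Wildtype replicate 1 stood far below the other 5 libraries, and KO-labelled values were close together at a mean of 126% of wildtype. The difference did not pass the threshold (log2 change 0.34 ± 0.113 SE, adjusted p = 0.315), and without wildtype replicate 1 the log2 change was 0.20 with an adjusted p of 0.290. Summed striatal markers were higher in the same libraries, at 23360.0, 27547 and 28829 normalized counts in wildtype and 32526, 34408 and 30477, with all 8 genes above 0 and 1 past the threshold. Wildtype replicate 1 was the lowest there too. It was also the lowest in the interneuron (18377) and meningeal (11508) sums, which were likewise higher without overlap. Among KO-labelled libraries, replicate 2 had the highest striatal sum and the lowest Ntn1 value. The part of any of these cells in the Ntn1 level was not tested. Ntn3 (log2 change 0.04 ± 0.0747 SE, adjusted p = 0.910) and Ntn4, found in vessels (log2 change -0.20 ± 0.134 SE, adjusted p = 0.635), overlapped, and Ntn5 was near the filter, at 12.0 to 35.3 normalized counts over all libraries (log2 change 0.44 ± 0.429 SE, adjusted p = 0.780).

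No netrin receptor passed the threshold. Unc5a had 2589.6, 2643 and 2552 normalized counts in wildtype and 2683, 2493 and 2617 in KO-labelled libraries (log2 change 0.00 ± 0.0465 SE, adjusted p = 0.997). Unc5d, found in migrating upper-layer neurons, had 1587, 2106 and 1979.6 against 1947, 1894 and 1979, where wildtype replicate 1 was the single low library (log2 change 0.05 ± 0.0946 SE, adjusted p = 0.909). Unc5b, known from endothelium (log2 change -0.08 ± 0.0848 SE, adjusted p = 0.812), and Unc5c (log2 change -0.10 ± 0.0584 SE, adjusted p = 0.581) overlapped. Dcc, the receptor for attraction, had 1377, 1756 and 1555 normalized counts against 1418, 1698 and 1334 (log2 change -0.08 ± 0.116 SE, adjusted p = 0.879), and Neo1 had 13960.3, 12732 and 12419.9 against 12648, 12024 and 12664 (log2 change -0.07 ± 0.0441 SE, adjusted p = 0.635). Neither gene was separated by genotype. Among netrin G genes, Ntng2, of cortical axons, had 1539, 1434 and 1439 against 1407, 1444 and 1491 (log2 change -0.02 ± 0.0549 SE, adjusted p = 0.924), and Ntng1, of thalamocortical axons, a log2 change of 0.06 ± 0.104 SE.

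Genes that transmit or modify these signals were counted in 3 lists, of 25 Eph-ephrin, 20 Slit-Robo and 24 netrin genes. With limma and with limma-voom none of them passed the threshold, and 3, 2 and 3 had an unadjusted p under 0.05. Over all tested genes these shares were 0.411% and 11.0%, so the lists were near the background. The medians of their log2 changes were -4.84e-04, -0.02 and -0.03. Ngef (ephexin), an exchange factor downstream of Epha4, had 5792, 6372 and 6728 normalized counts in wildtype and 7348, 7035 and 7079 in KO-labelled libraries, all of which were above wildtype (log2 change 0.19 ± 0.0493 SE, adjusted p = 0.151). Without the female libraries the adjusted p of Ngef was 0.0379, but these held its highest wildtype and lowest KO-labelled values, so leaving them out widens the gap. This was the only pass of Ngef in 18 alternative fits. With each library left out in turn, its adjusted p was 0.0711 to 0.478. Sdcbp (syntenin), which binds the tails of B-class ephrins, had 2775 ± 27.2 against 2545 ± 72.7 (SD, n = 3 each, log2 change -0.13 ± 0.0448 SE, adjusted p = 0.295). In the Slit-Robo list the smallest p values were those of the exchange factor Sos1 (log2 change -0.13 ± 0.0490 SE, adjusted p = 0.346) and the actin regulator Enah (log2 change -0.09 ± 0.0407 SE, adjusted p = 0.399). In the netrin list they were those of Flrt2, an Unc5 ligand (log2 change -0.15 ± 0.0484 SE, adjusted p = 0.240), and Trim67, a ubiquitin ligase that binds Dcc (log2 change -0.11 ± 0.0396 SE, adjusted p = 0.295).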

How the data were processed

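P7 cortices of 3 wildtype and 3 Zmiz1-KO samples, grouped by their titles, were sequenced from unstranded TruSeq libraries. Per the study's methods, the authors aligned reads to mm10 with STAR in BaseSpace and ran DESeq2. The authors deposited 1 normalized signal value per gene and library, here called normalized counts. Versions and annotation are not given in the sources used here. Values summed to 32661979 to 33239707 per library. Dividing by the commonest low step estimated 15495006 to 17858811 reads, but only 59.1 to 75.8% of values under 50 were within 0.05 of a whole multiple of it, so reads were not recovered and no count model was run. This depth and 3 libraries a group limit precision.

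Fold changes are on the scale of log2(value + 1), which understates those of low genes. The 15800 genes with at least 10 in at least 3 libraries were fitted with limma (3.58.1, in R 4.3.3) with trend, robust estimation and no covariate. P values are 2-sided, with Benjamini-Hochberg adjustment across the tested genes. The members and lists were chosen with earlier results of these data known. All members are named. Values per library are given for members at an adjusted p of 0.1 or less, members without overlap and the leading member of each family, and for Efna5, Unc5d and Dcc, chosen after their values were seen. From each signaling list the 2 genes with the smallest p are named, with values of all 3 libraries a group for Ngef. Coordinates, exon lengths and shared stretches came from GENCODE M21. The fit was tested on simulated data. Alternatives were other pseudocounts, filters and scalings, limma-voom, no robust estimation, a replicate block, Xist as covariate and each library left out. Male libraries alone and the longest transcript were chosen after seeing the data.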

Additional observations from a re-analysis of the deposited data

How the results depend on the processing

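The number of members called, 1, was 0 with Xist as covariate and without robust estimation, 2 with replicate numbers as a block and at an adjusted p of 0.1, and 0 to 2 with each library left out. Under the block and at 0.1 these were Epha4 and Epha6, and without KO-labelled replicate 2 they were Epha4 and Epha5. Without wildtype replicate 3 and in male libraries alone, the 1 call was Epha5. TMM, median-ratio and upper-quartile scaling, both other pseudocounts, both other filters and limma-voom gave Epha4 alone. Calls over all 15800 tested genes moved as well, from 65 in the main fit to 168 with the block and 106 at 0.1. They numbered 62 with Xist as covariate, 17 without robust estimation and 146 in male libraries. With each library left out they were 12 to 151, with 151 without KO-labelled replicate 2 and 52 without wildtype replicate 3. Same-numbered libraries had correlations of -0.0051, -0.113 and -0.0063 between their deviations from the group means. This gave no sign that the numbers pair them, but with 3 libraries a group it cannot exclude a pairing. Members without overlap, 8, numbered 11 to 18 with a library left out and 17 in male libraries. Fewer values were compared there, so that groups without a difference separate more often. The share over all tested genes was not computed for these settings, and the counts cannot be read without it. Signaling genes called, 0, were 1 in male libraries. Tests on whole reads with other tools were not run, since reads were not recovered. The median change of the members was -0.04 to -0.02 and that of Zmiz1 0.29 to 0.35 with each library left out.

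Of the 41 members, 28 kept their direction in every other fit run, 18 for each gene but 17 for Epha1, which 1 filter removed, and 13, none of them called, turned in at least 1. In male libraries the log2 changes that turned were -0.030 (Efna1), 0.0551 (Efna2), -0.022 (Slit1), 0.019 (Robo4), -0.020 (Ntn3) and -0.069 (Ntng1). With Xist as covariate they were 0.012 (Slit2) and -0.00492 (Unc5a), and with upper-quartile scaling 7.00e-04 (Slit2). With each library left out they ranged over -0.059 to 0.20 for Efna1, -0.079 to 0.052 for Efna2, -0.15 to 0.058 for Efna4, -0.0098 to 0.052 for Slit1, -0.098 to 0.047 for Slit2, -0.012 to 0.13 for Slit3, -0.043 to 0.041 for Robo4, -0.0026 to 0.071 for Ntn3, -0.041 to 0.19 for Ntng1, -0.044 to 0.010 for Ntng2, -0.022 to 0.030 for Unc5a, -0.074 to 0.13 for Unc5d and -0.18 to 0.012 for Dcc. The cause was not tested.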
